A study of Mus musculus with 4 samples.

Results

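A group of 6 genes known to respond to stretch in heart muscle was followed in cardiomyocytes from pressure-overloaded hearts. They code for the LIM domain proteins Fhl1, Fhl2 and Csrp3 and the ankyrin repeat proteins Ankrd1, Ankrd2 and Ankrd23. The members were taken by gene symbol, and all 6 were found among the 22322 genes of each count file. RNA sequencing was performed on cardiomyocytes isolated from male mice, and the sources used here do not name the strain. The labels give 2 sham libraries and 2 libraries after transverse aortic constriction (TAC), in which the aorta is narrowed and the left ventricle works against a pressure load. Per the methods of the study, mice were operated on at 2 months of age, and each library was made from part of the cardiomyocytes of 1 heart. These methods give 14 weeks both as the time after surgery and as the age at cell isolation, so that the age is uncertain. No transgene or deletion is named for any group.

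LIM domains are pairs of zinc fingers that bind other proteins. Csrp3, also called muscle LIM protein, sits at the Z-disc and the costamere and binds telethonin and alpha-actinin. Fhl1 and Fhl2 are built of LIM domains only, bind the elastic N2B region of titin and are linked to MAP kinase signalling and to metabolic enzymes. Ankrd1, Ankrd2 and Ankrd23 form the muscle ankyrin repeat protein family, which binds the N2A region of titin and myopalladin, and moves between sarcomere and nucleus. Ankrd1 is also known as CARP and is a widely used marker of cardiac hypertrophy, while Ankrd2 is best known from slow skeletal muscle.

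The libraries held 24237777 to 32118323 counts, of which 39.84% to 40.85% were mitochondrial in 3 libraries and 47.42% in TAC 1. Levels are given below as CPM (the count scaled to the size of the library), with TMM factors, which set libraries on a common scale from the bulk of the genes. Changes are log2 fold changes of TAC against sham with their standard error (SE), and a gene was called at an adjusted p under 0.05. The cardiomyocyte label was checked against 12 markers, whose summed level was 72340 and 80380 CPM in sham and 78710 and 74910 CPM in TAC, with 1 of the 12 called higher by edgeR, while 6 were higher and 1 lower at an unadjusted p under 0.05 and DESeq2 called 5 higher and 1 lower. Markers of other cells were far lower, and most of them were lower in TAC than in sham. The 10 endothelial markers summed to 703.3 and 605.1 CPM in sham against 334.0 and 462.0 CPM in TAC. Of them 4 were called lower by edgeR and 7 by DESeq2, and 9 were lower at an unadjusted p under 0.05. The 10 fibroblast markers summed to 257.5 and 185.1 against 107.2 and 145.9 CPM. EdgeR called 3 of them lower and DESeq2 5, and 8 were lower at an unadjusted p under 0.05. The 10 macrophage markers summed to 137.4 and 70.51 against 37.62 and 70.22 CPM. Of these 10, 0 were called by edgeR, 6 were lower at an unadjusted p under 0.05 and 1 was called lower by DESeq2. Of the 10 mural markers edgeR called 2 lower, and DESeq2 called 3 lower and 1 higher. At an unadjusted p under 0.05, 7 of them were lower and 1 was higher. Their sum, carried by Des, was nonetheless 2234 and 2377 CPM in sham and 2418 and 2573 CPM in TAC. No marker of these lists was at 0 in any library. Of 8 skeletal muscle genes, Myh1, Myh2 and Myh4 had no count in any library, and Actn3 had 0 to 4 counts per library. Tnnt3 had 1 to 10, Mylpf 1 to 3 and Tnni2 3 to 20, while Ckm, also expressed by cardiomyocytes, stood at 1354 to 1573 CPM. In bulk RNA, fewer cells of a type and less RNA per cell cannot be told apart. The part of these shifts in the results below was not tested, but a scaling by the cardiomyocyte markers is given beside them.

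All 6 genes were higher in both TAC libraries than in both sham libraries, and 4 of them passed the edgeR test across all genes. Ankrd23 rose the most among the called genes, followed by Ankrd1. Fhl1 and Csrp3 came next, at 0.63 ± 0.12 and 0.62 ± 0.10 on the log2 scale. They differed by less than their SE, and their order turned without TAC 2 (0.44 and 0.73). Fhl2, at 0.21 on the log2 scale, and Ankrd2, which was close to the detection limit, did not pass. Of the 12499 genes tested, 5.01% were called in either direction 2.58% were called higher and 2.43% lower in TAC. This split depended on the scaling, and with total counts 0.84% were called higher and 3.38% lower. None of the 6 genes was called lower by edgeR or DESeq2, and 0 were lower at an unadjusted p under 0.05. DESeq2 called the same 4 genes, beside 4.28% called higher of the genes to which it gave an adjusted p. Groups that do not overlap were common with n = 2 per group, since both TAC libraries lay above both sham libraries in 29.8% of all genes tested and below in 30.3%, 60.1% in all.

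**Figure D1:**
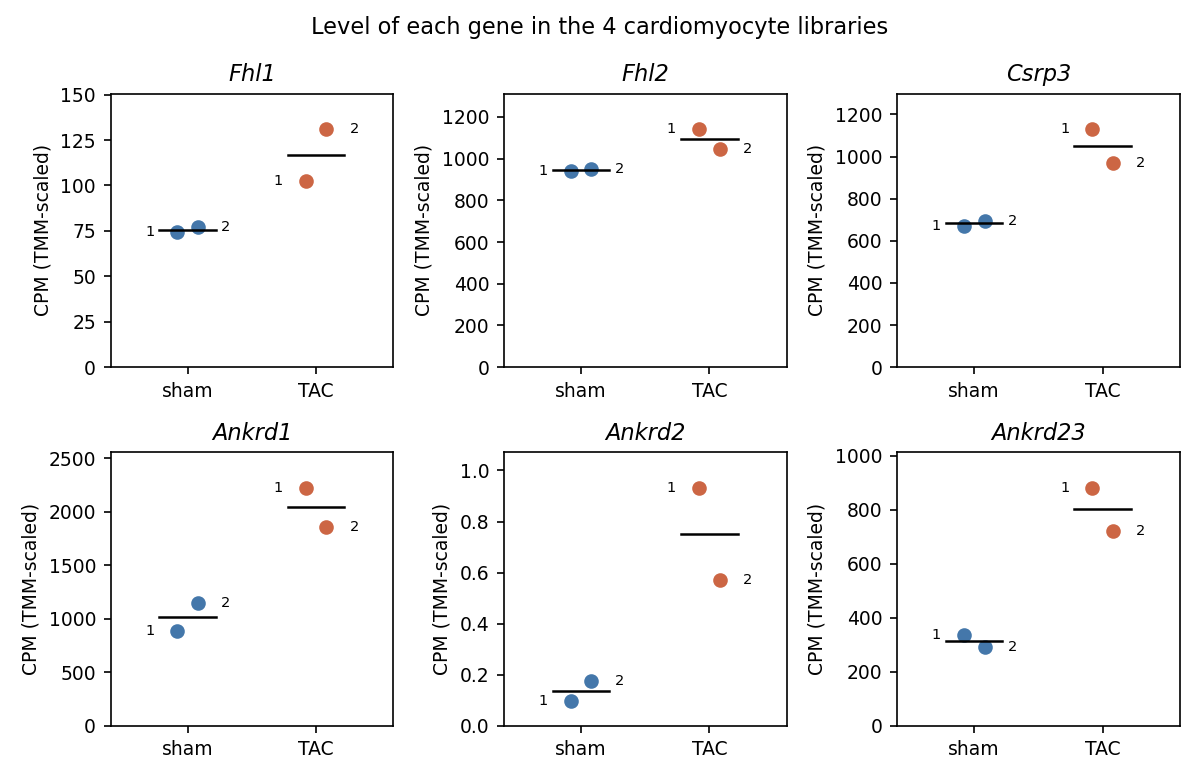
Level of each of the 6 genes in CPM (vertical axis, from 0) in the sham and TAC libraries. Points are single libraries numbered by replicate, and the line is the mean of 2. In all 6 genes both TAC points lie above both sham points, and the gap is widest relative to the sham level in Ankrd2, at under 1 CPM.

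The LIM domain genes were examined first. Csrp3 (ENSMUSG00000030470, GRCm38 chr7:48830398-48848033, minus strand) stood at 671 CPM in sham 1, 696 CPM in sham 2, 1130 CPM in TAC 1 and 968 CPM in TAC 2. Both TAC libraries were thus higher, and the lowest TAC level was 1.39 times the highest sham level. The sham mean was 684 ± 17.7 CPM and the TAC mean 1049 ± 114 CPM (± SD, n = 2 per group), and Csrp3 rose by 0.62 ± 0.10 on the log2 scale (edgeR adjusted p = 0.0196). The call was lost when libraries were scaled by total counts, the scaling named by the study, at 0.42 on the log2 scale (edgeR adjusted p = 0.0614).

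Fhl1 (ENSMUSG00000023092, GRCm38 chrX:56731787-56793346, plus strand) stood at 74.2 CPM in sham 1, 76.9 CPM in sham 2, 102 CPM in TAC 1 and 131 CPM in TAC 2. The sham libraries were nearly equal, and the TAC libraries differed from each other by a factor of 1.28, with TAC 2 the higher. The mean rose from 75.6 ± 1.86 CPM to 117 ± 20.1 CPM (± SD, n = 2 per group), which is 0.63 ± 0.12 on the log2 scale (edgeR adjusted p = 0.0310). Fhl1 was the one called gene of the 6 in which TAC 2 lay above TAC 1. The call was lost with total counts (0.45, edgeR adjusted p = 0.141), with totals that left out the mitochondrial genes (0.53, 0.0579), in the deposited FPKM (0.43, limma adjusted p = 0.136) and with scaling by the cardiomyocyte markers (0.62, edgeR adjusted p = 0.0674). The log2 fold change was 0.44 without TAC 2 and 0.79 without TAC 1.

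Fhl2 (ENSMUSG00000008136, GRCm38 chr1:43123074-43196984, minus strand) was the LIM gene with the smallest difference between groups. It stood at 941 CPM in sham 1, 948 CPM in sham 2, 1141 CPM in TAC 1 and 1044 CPM in TAC 2. Both TAC libraries were above both sham libraries, and the ratio of the means was 1.16. Its log2 fold change of 0.21 ± 0.08 (95% interval 0.02 to 0.40) was not called (edgeR adjusted p = 0.158). With total counts it was 0.02 (edgeR adjusted p = 0.948), and none of the 12 alternatives gave a call.

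RefSeq promoters (GRCm38.p6, 250 bases before to 50 bases after a start site) were matched by symbol for all 6 genes, which gave 10 promoters. They were searched on both strands for the M-CAT element CATTCC, which TEAD factors bind, the CArG box of serum response factor, the MEF2 box and the Nkx2-5 element TNAAGTG. No matches in these 10 promoters overlapped each other. Those of Fhl1 and Fhl2 with a CArG box are shown here, with the box in capitals, because it was found in both of the genes built of LIM domains only. A CArG box was present in 1.63% of all 32851 promoters of this length. In the first Fhl1 promoter (chrX:56779433-56779732, plus strand) it spanned positions -102 to -93, counted back from the start site. In Fhl2 it spanned -96 to -87 of the first promoter (chr1:43196712-43197011, minus strand) and -31 to -22 of the second (chr1:43163912-43164211, minus strand).
Fhl1 promoter 1: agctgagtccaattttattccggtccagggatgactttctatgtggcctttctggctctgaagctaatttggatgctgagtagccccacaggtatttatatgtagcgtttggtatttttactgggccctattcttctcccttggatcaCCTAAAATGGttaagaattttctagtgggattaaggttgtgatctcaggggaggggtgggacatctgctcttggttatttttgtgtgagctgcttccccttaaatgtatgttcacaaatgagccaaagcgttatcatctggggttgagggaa
Fhl2 promoter 1: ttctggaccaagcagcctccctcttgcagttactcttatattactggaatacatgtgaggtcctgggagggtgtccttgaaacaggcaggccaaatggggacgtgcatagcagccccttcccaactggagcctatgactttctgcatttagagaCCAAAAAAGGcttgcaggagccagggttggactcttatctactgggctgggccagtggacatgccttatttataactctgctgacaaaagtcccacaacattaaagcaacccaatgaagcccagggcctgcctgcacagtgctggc
Fhl2 promoter 2: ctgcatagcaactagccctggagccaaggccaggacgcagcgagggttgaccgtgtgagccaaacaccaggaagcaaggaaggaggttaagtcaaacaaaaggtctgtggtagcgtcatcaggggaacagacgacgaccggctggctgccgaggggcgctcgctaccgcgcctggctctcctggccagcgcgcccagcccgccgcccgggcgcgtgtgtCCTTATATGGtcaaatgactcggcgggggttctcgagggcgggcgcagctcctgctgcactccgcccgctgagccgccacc
The first Fhl2 promoter also held a MEF2 box at -31 to -22, a motif found in 3.19% of all promoters. The second Fhl1 promoter held no match to the 4 motifs. The Csrp3 promoters held a single match, to the Nkx2-5 element at -246 to -240 of the first, which 11.5% of all promoters hold. A match of letters is a description of the sequence and not a measured binding site.

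The muscle ankyrin repeat genes were examined next. Ankrd23 (ENSMUSG00000067653, GRCm38 chr1:36530188-36536883, minus strand) stood at 337 CPM in sham 1, 291 CPM in sham 2, 881 CPM in TAC 1 and 721 CPM in TAC 2. Both TAC libraries were far above both sham libraries, and the lowest TAC level was 2.14 times the highest sham level. The mean rose from 314 ± 32.7 CPM to 801 ± 113 CPM (± SD, n = 2 per group), which is 1.35 ± 0.12 on the log2 scale (edgeR adjusted p = 0.00445). It ranked 71 of 12499 genes by log2 fold change. The call held in all 13 alternatives run for this gene, where the log2 fold change ranged from 1.14 to 1.49. Ankrd23 shares its strand and part of its sequence with the annotated gene Gm42417 (chr1:36530193-36539429), and its counts were not whole, for example 10662.08 in sham 1. Gm42417 was given 14.92 and 4.82 counts in the sham libraries and 63.77 and 9.55 in the TAC libraries, at most 0.260% of the Ankrd23 count, and adding them left the log2 fold change of Ankrd23 at 1.35 (edgeR adjusted p = 0.00445).

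Ankrd1 (ENSMUSG00000024803, GRCm38 chr19:36111961-36120099, minus strand) stood at 887 CPM in sham 1, 1152 CPM in sham 2, 2225 CPM in TAC 1 and 1862 CPM in TAC 2. The sham libraries differed more than those of any other called member, with sham 1 at 0.77 times sham 2, and the lowest TAC level was still 1.62 times the highest sham level. The mean rose from 1019 ± 187 CPM to 2043 ± 257 CPM (± SD, n = 2 per group), which is 1.00 ± 0.14 on the log2 scale (edgeR adjusted p = 0.0149). It ranked 129 of 12499 genes by log2 fold change. The call held in all 12 alternatives, with log2 fold changes from 0.81 to 1.21. The largest value came without sham 2 and the smallest with total counts.

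Ankrd2 (ENSMUSG00000025172, GRCm38 chr19:42036000-42045110, plus strand) was nearly silent. The sham libraries held 3 and 5 counts and the TAC libraries 26 and 14, which is 0.0948, 0.174, 0.933 and 0.573 CPM. The 95% exact Poisson intervals, which cover counting error only, reached from 0.0196 to 0.277 CPM in sham 1, from 0.0564 to 0.406 CPM in sham 2, from 0.609 to 1.37 CPM in TAC 1 and from 0.313 to 0.961 CPM in TAC 2. The interval of TAC 2 overlapped that of sham 2. Pooled over libraries, 40 counts in TAC against 8 in sham gave a ratio of 5.77. Its counting interval of 2.67 to 14.3 leaves out differences between hearts and is no test of the groups. The difference was not called (edgeR adjusted p = 0.0593). Ankrd2 entered the test only through its TAC counts, so that its direction is not independent of the filter. It was called without a low-count filter (edgeR adjusted p = 0.0303), and across alternatives its adjusted p lay between 0.0234 and 0.304, with none given by DESeq2.

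**Figure D2:**
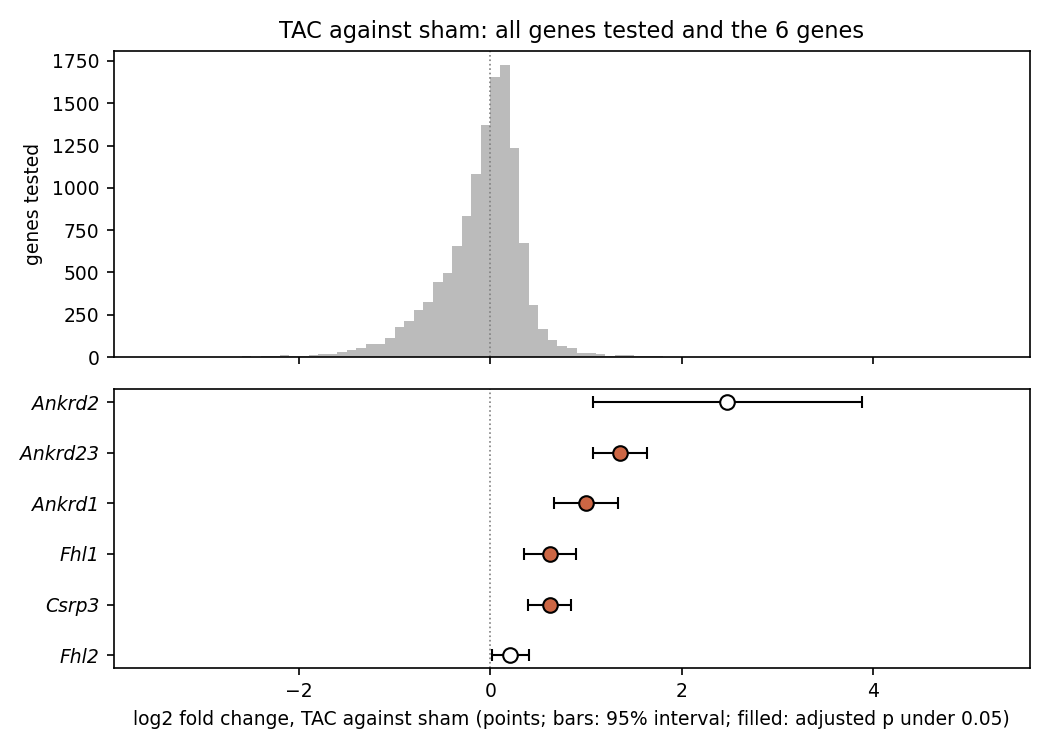
Top, number of genes (vertical axis) by log2 fold change for all 12499 genes tested. Bottom, log2 fold change of the 6 genes with their 95% intervals on the same axis; filled points are called. Ankrd23 at 1.35 and Ankrd1 at 1.00 lie in the upper tail, while Fhl2 at 0.21 lies inside the bulk of the genes.

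Promoters with the M-CAT element are shown for Ankrd1 and Ankrd23, the pair with the largest called changes, with the element in capitals. The element was found in 14.7% of all promoters of this length, and 1.36% held more than one. The Ankrd1 promoter (chr19:36119795-36120094, minus strand) held 2, at -210 to -205 and at -123 to -118, both on the reverse strand and therefore read as the reverse complement GGAATG. Each of the annotated starts of Ankrd23 held 1, at -120 to -115 of promoter 2 (chr1:36535690-36535989, minus strand) and at 37 to 42 after the start in promoter 1 (chr1:36536507-36536806, minus strand).
Ankrd1 promoter: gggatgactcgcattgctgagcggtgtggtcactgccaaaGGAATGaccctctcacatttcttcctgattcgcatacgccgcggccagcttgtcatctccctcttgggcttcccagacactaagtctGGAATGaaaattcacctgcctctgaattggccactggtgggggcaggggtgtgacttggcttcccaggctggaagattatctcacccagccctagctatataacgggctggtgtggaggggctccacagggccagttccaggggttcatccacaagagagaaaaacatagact
Ankrd23 promoter 1: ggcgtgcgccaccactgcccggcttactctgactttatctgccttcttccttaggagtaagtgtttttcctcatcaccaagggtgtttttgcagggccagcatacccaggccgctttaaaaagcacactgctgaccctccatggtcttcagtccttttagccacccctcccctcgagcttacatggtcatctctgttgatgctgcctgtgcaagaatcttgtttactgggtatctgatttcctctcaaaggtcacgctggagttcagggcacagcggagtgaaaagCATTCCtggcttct
Ankrd23 promoter 2: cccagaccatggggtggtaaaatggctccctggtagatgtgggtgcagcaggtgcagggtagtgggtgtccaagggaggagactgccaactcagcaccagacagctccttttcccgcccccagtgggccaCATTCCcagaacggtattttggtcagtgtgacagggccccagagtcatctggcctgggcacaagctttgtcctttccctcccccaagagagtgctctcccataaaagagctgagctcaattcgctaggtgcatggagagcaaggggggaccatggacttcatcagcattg
The Ankrd2 promoter held no match to any of the 4 motifs. M-CAT matches were absent from the promoters of Fhl1, Fhl2, Csrp3 and Ankrd2, and CArG boxes from those of Csrp3 and the ankyrin repeat genes, which says only that these letters are not in these windows.

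Levels between genes were then compared in the deposited FPKM, a value per kilobase of transcript. In sham, Csrp3 was highest at 842 and 829 FPKM, followed by Fhl2 at 714 and 680 FPKM and Ankrd1 at 482 and 593 FPKM. Ankrd23 was at 186 and 151 FPKM, Fhl1 at 35.3 and 35.4 FPKM and Ankrd2 at 0.09 and 0.16 FPKM. In TAC the order changed in 1 place. Csrp3 stayed first at 1120 and 1116 FPKM, Ankrd1 at 957 and 930 FPKM lay above Fhl2 at 683 and 723 FPKM, and Ankrd23 reached 383 and 359 FPKM. Fhl1 was at 39.7 and 58.1 FPKM and Ankrd2 at 0.74 and 0.51 FPKM. In neither group did neighbours in this order overlap between libraries. On this scale Fhl2 overlapped between sham and TAC.

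Ratios of 2 genes within a library do not depend on the scaling. Ankrd1 was at 0.675 and 0.872 times the level of Fhl2 in the sham libraries and at 1.40 and 1.29 times in the TAC libraries. Ankrd23 was at 0.260 and 0.222 times Fhl2 in sham and at 0.560 and 0.497 times in TAC. The ratio of Csrp3 to Fhl2 went from 1.18 and 1.22 to 1.64 and 1.55. Each of these ratios was higher in both TAC libraries than in both sham libraries. This follows largely from the choice of Fhl2, the member with the smallest log2 fold change, as the divisor. Ankrd1 was at 0.572 and 0.715 times Csrp3 in sham and at 0.854 and 0.833 times in TAC. The ratio of Fhl2 to Fhl1 went from 20.2 and 19.2 to 17.2 and 12.4. How often the ratios of other gene pairs separate in this way was not measured. The ratio of Ankrd23 to Ankrd1, 0.385 and 0.255 in sham and 0.400 and 0.386 in TAC, varied more between the sham libraries than between the groups. The ratios are given as a description, and their differences were not tested.

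The 6 genes together took 0.319% and 0.329% of all counts in sham and 0.476% and 0.477% in TAC. Their summed FPKM was 2260 and 2289 in sham and 3183 and 3187 in TAC. The composition shifted as well. Of the summed FPKM, Ankrd1 held 23.6% ± 3.23 in sham and 29.6% ± 0.614 in TAC, and Ankrd23 7.41% ± 1.14 and 11.7% ± 0.539 (mean ± SD, n = 2 each). Fhl2 went from 30.7% ± 1.33 to 22.1% ± 0.855, and Csrp3 from 36.8% ± 0.746 to 35.1% ± 0.106.

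**Figure D3:**
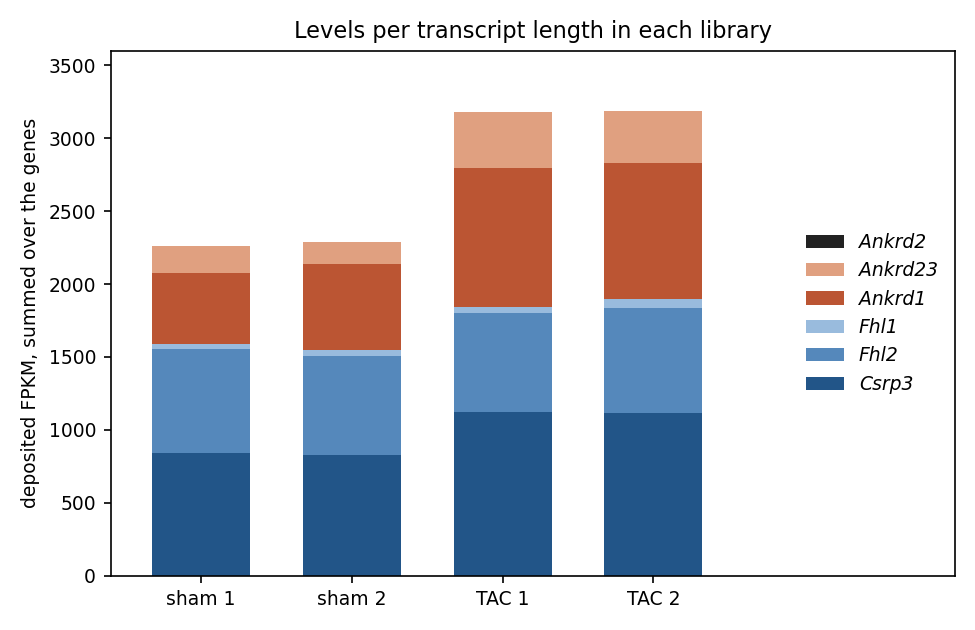
Deposited FPKM (vertical axis, from 0) of the 6 genes stacked for each library. LIM genes are in blue and ankyrin repeat genes in red, and Ankrd2 at under 1 FPKM is too low to be seen. The stacks reach 2260 and 2289 in sham and 3183 and 3187 in TAC, and the red part is taller in TAC.

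The changes were compared across settings. All log2 fold changes of the 6 genes were above 0 in the 72 combinations of a gene and an alternative that were run. Total-count scaling lowered every gene by about the same amount, since the median of all tested genes moved from -0.01 to -0.20. Under it 2 of the 6 genes, Ankrd1 and Ankrd23, were called higher, beside 0.84% of all genes, and the same 2 were called higher in the deposited FPKM, beside 1% of the genes tested there. With the cardiomyocyte markers as the scale, an alternative chosen after the data were seen, Ankrd23 was at 1.33, Ankrd1 at 1.00, Csrp3 at 0.60 and Fhl1 at 0.62, and the first 3 of these were called (edgeR adjusted p = 0.00782, 0.00906 and 0.0203).

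**Figure D4:**
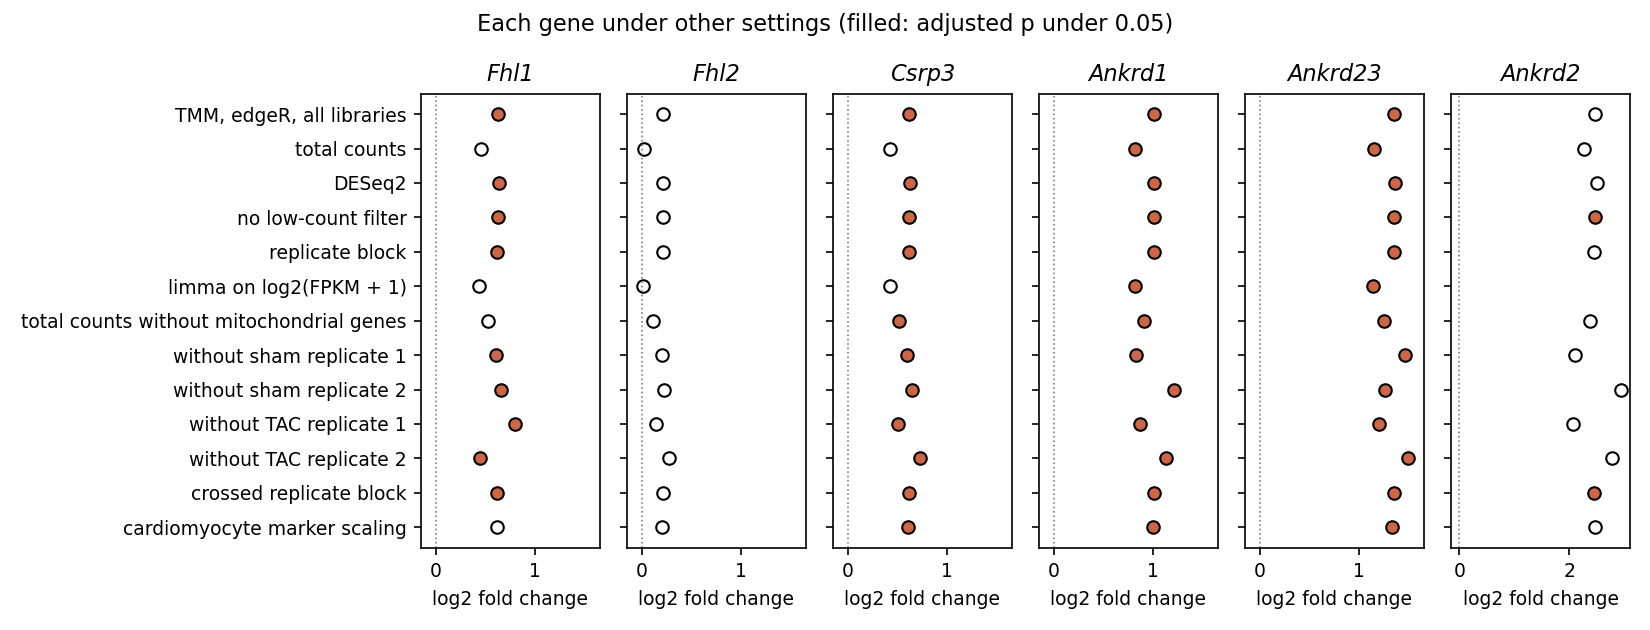
Log2 fold change of each gene (horizontal axis, wider for Ankrd2) in the TMM fit of all libraries and under each alternative (rows). Filled points are called, and Ankrd2 has no adjusted p from DESeq2 and no value in FPKM. Ankrd1 and Ankrd23 are filled in every row, Fhl2 in none, and Csrp3 and Fhl1 lose the call under total counts and in FPKM.

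Genes whose profile over the 4 libraries lay nearest to each called gene were listed as a description. The measure was the Euclidean distance between log2 CPM values centred on the mean of each gene, over the 4334 genes that averaged 20 CPM or more across the 4 libraries. Shb, Dexi and Cystm1 were below 20 CPM in both sham libraries and met this minimum through their TAC levels. The gene nearest to Ankrd1 was Ccn2, the matricellular factor CTGF, at a distance of 0.129, which stood at 44.1 and 52.2 CPM in sham and 110 and 84.5 CPM in TAC (log2 fold change 1.02 ± 0.14, edgeR adjusted p = 0.0127). Since Ccn2 was picked for a profile like that of a called gene, its change and adjusted p are no separate result. Dexi (0.221) and the integrin gene Itga9 (0.265) came next. Nearest to Ankrd23 were the adaptor gene Shb (0.0730), the amino acid transporter Slc38a2 (0.165) and the uridine-cytidine kinase Uck2 (0.255). Nearest to Csrp3 were Cystm1 (0.0647), the MAP kinase-interacting kinase gene Mknk2 (0.0668) and the dynein gene Dync1li1 (0.0748). Nearest to Fhl1 were Ninj1 (0.110), Pdk4 (0.125), which restrains glucose oxidation, and Tmem147 (0.132). With 4 libraries many genes share such a profile.

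Partner proteins of the 6 genes were examined as a list of 20. Of these, edgeR called 3 higher and 1 lower in TAC, beside 2.58% and 2.43% of all genes tested. DESeq2 called 5 higher and 1 lower. At an unadjusted p under 0.05, 7 were higher and 1 was lower, and 3438 of the 12499 genes tested had such a p. The median log2 fold change of the list was 0.15 against -0.01 over all genes tested with the same scaling. Nrap, an actin-anchoring LIM protein that binds Csrp3, rose from 602 and 641 CPM in sham to 1145 and 997 CPM in TAC (0.79 ± 0.09, edgeR adjusted p = 0.00796). Mypn, which codes for the myopalladin that anchors ankyrin repeat proteins, rose by 0.44 ± 0.07 (edgeR adjusted p = 0.0240), and the actin-severing cofilin gene Cfl2 by 0.49 ± 0.09 (0.0313). Tcap, which codes for the telethonin that binds Csrp3 and caps titin, fell. It stood at 722 and 952 CPM in sham and at 435 and 455 CPM in TAC, and its log2 change was -0.91 ± 0.13 (edgeR adjusted p = 0.0149). With total counts Nrap and Tcap kept the call, while Mypn (0.26, edgeR adjusted p = 0.259) and Cfl2 (0.30, 0.143) did not. Cfl2 was also not called without TAC 1 (0.0902). Ttn, the gene of titin itself, overlapped between groups, at 5837 and 6736 CPM in sham and 6351 and 6774 CPM in TAC (0.06 ± 0.11, edgeR adjusted p = 0.754). Desmin (Des, 0.37, edgeR adjusted p = 0.0529) and alpha-actinin (Actn2, 0.36, 0.0582) lay above both sham libraries in both TAC libraries but were not called by edgeR. The largest uncalled value was that of the calpain gene Capn3, 0.37 at 3.07 to 5.70 CPM, and it turned to -0.15 without TAC 1.

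Other LIM domain and ankyrin repeat genes formed a list of 20, of which 17 could be tested. EdgeR called 2 genes higher and 0 lower, beside 2.58% and 2.43% of all genes tested. DESeq2 called 3 higher and 0 lower, and 4 were higher and 1 lower at an unadjusted p under 0.05. The median log2 fold change was -0.01, the same as that of all genes tested. Pdlim5, a Z-disc LIM protein, rose from 503 and 575 CPM to 771 and 717 CPM (0.47 ± 0.09, edgeR adjusted p = 0.0373). Zyx, the focal adhesion protein zyxin, rose from 16.8 and 15.8 CPM to 26.9 and 23.2 CPM (0.62 ± 0.11, 0.0283). Neither was called with total counts (edgeR adjusted p = 0.187 and 0.107) or without TAC 1 (0.102 and 0.0902), and Pdlim5 was not called without sham 1 (0.0994). Of the close relatives of the LIM genes, Csrp1 stood at 9.97 to 15.8 CPM, Fhl3 at 2.87 to 3.68 CPM and Csrp2 at 1.69 to 2.82 CPM, Fhl4 was at or below 0.287 CPM, and Fhl5 had no count in any library. The largest uncalled difference was that of Crip1, -0.69 at 1.54 to 4.08 CPM, which was -0.21 without TAC 1 and -1.36 without TAC 2. Ankrd39, the neighbour of Ankrd23, stood at 3.32 and 2.92 CPM in sham and 3.30 and 2.82 CPM in TAC.

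Transcriptional regulators known to act on genes of this kind formed a list of 13. EdgeR called 1 higher and 1 lower, beside 2.58% and 2.43% of all genes tested. DESeq2 called 2 higher and 1 lower, and 2 were higher and 2 lower at an unadjusted p under 0.05. The median log2 fold change was -0.0001. Srf, which codes for the factor that binds CArG boxes, rose from 52.8 and 54.3 CPM to 76.5 and 70.0 CPM (0.45 ± 0.08, edgeR adjusted p = 0.0278). Tbx5, a cardiac T-box factor, fell from 18.1 and 17.9 CPM to 7.96 and 11.5 CPM (-0.89 ± 0.17, 0.0348). Srf was not called with total counts (0.26, edgeR adjusted p = 0.213), and neither gene was called without TAC 1 (0.0850 for Srf and 0.0613 for Tbx5). Tead1, which codes for a TEAD factor, was at 174 and 168 CPM in sham and 203 and 213 CPM in TAC (0.28 ± 0.07, edgeR adjusted p = 0.0642), and its cofactor gene Yap1 was at 0.14 ± 0.09 (0.342). The largest uncalled value was that of Mrtfa, 0.37 at 2.95 to 4.95 CPM (edgeR adjusted p = 0.326). It ranged from 0.19 with total counts to 0.58 without sham 1.

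**Figure D5:**
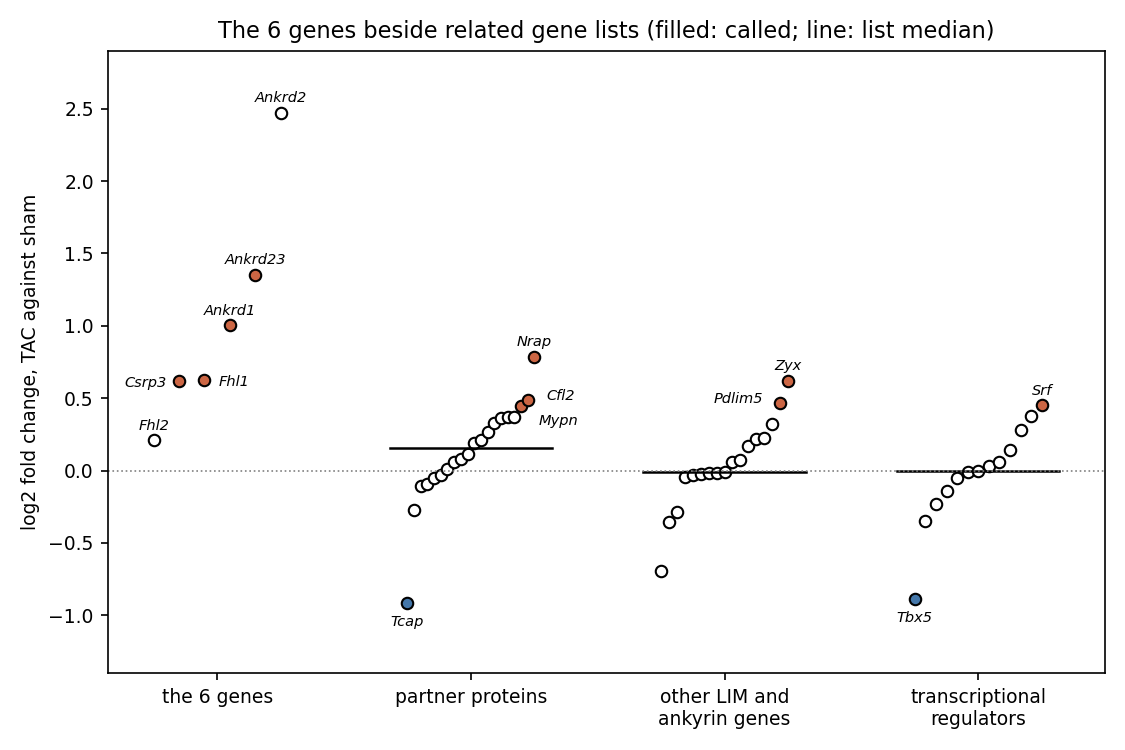
Log2 fold change (vertical axis) of the 6 genes and of the tested genes of 3 related lists. Points are genes, filled where called, and the line is the median of a list. The medians are 0.15 for partner proteins, -0.01 for other LIM and ankyrin genes and -0.0001 for regulators, and Tcap at -0.91 and Tbx5 at -0.89 are the called falls.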

How the data were processed

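Each library had an expected count per gene, an estimate made by the authors that is not whole for 1432 to 1519 genes. The deposited FPKM divides by transcript length and library size. Per the submitters' processing notes, Bowtie2 2.2.8, StringTie 1.3.1 and the mm10 build were used; the sources used here do not give their roles, the annotation, the strand setting, or the length and total behind the FPKM. Libraries were mapped to groups by their titles. Members and lists were chosen with earlier results of these data known. Counts were rounded, passed through filterByExpr, given TMM factors (1.097 and 1.04 in sham, 0.868 and 1.009 in TAC) and tested with the quasi-likelihood test of edgeR 4.0.16 in R 4.3.3, TAC against sham without a block. P-values were adjusted by Benjamini-Hochberg over 12499 genes, and the SE is the log2 fold change over the square root of F. The common biological coefficient of variation was 10.5%. A check for a library deposited more than once found none, since replicates differed beyond sampling noise (chi-square per degree of freedom 8.08 in sham and 26.71 in TAC). The methods state 1 heart per library. Alternatives were total counts with and without mitochondrial genes, DESeq2 1.42.0, no filter, a replicate block, limma 3.58.1 on log2(FPKM + 1) of genes with a mean FPKM of at least 1, and leaving out each library. Fits without a library had 1 library left in its group and took the spread between libraries from the other group alone. Named genes were the 6 members, called genes and the largest uncalled one of each list, and the 3 nearest profiles of each called member. Any further gene named in the text was chosen after its values were seen. Fits were tested on simulated data.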

Additional observations from a re-analysis of the deposited data

How the results depend on the processing

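Of 626 genes called, 322 were higher and 304 lower. No low-count filter gave 1676 (707 and 969), and the higher calls fell to 105 with total counts, 188 with totals without mitochondrial genes and 97 in FPKM with limma, where the lower calls were 423, 450 and 394. Leaving out 1 library gave 301 to 1336 genes called, 183 to 560 higher and 118 to 776 lower, the low ends without TAC 1 and the high ends without TAC 2. Of the 6 members, 2 were called with total counts and 2 in FPKM. The log2 fold change of Fhl1 lost its call with total counts (0.45), in FPKM (0.43), with totals without mitochondrial genes (0.53) and with cardiomyocyte marker scaling (0.62), that of Csrp3 with total counts (0.42) and in FPKM (0.42), and Ankrd2 gained one without the filter (2.47). Partner genes called numbered 2 with total counts and in FPKM and 7 without the filter, family genes 0 with total counts and in FPKM, and regulators 4 without the filter. Leaving out 1 library gave 0 to 5 family genes (1 without sham 1, 0 without TAC 1, 5 without TAC 2) and 0 to 2 regulators (0 without TAC 1). For none of them was the cause tested. Of 71 member values with an adjusted p under an alternative, 63 kept direction and call. The sham FPKM of Fhl1 was 35.5 when recomputed as CPM per implied length.

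The methods speak of pairs of sham and TAC mice, but neither they nor the labels say what a pair shares or that the replicate numbers mark one, and the deviations of same-numbered libraries correlated at -0.28 across 8492 genes. A replicate block left the members called at 4. A crossed replicate block, chosen after the data were seen, gave 2131 genes called (968 higher, 1163 lower), 7 partner genes, 4 regulators and a call for Ankrd2 (2.45). Marker scaling and the addition of Gm42417 counts were chosen after the data were seen too. With 2 libraries per group, the spread behind each p was estimated largely from other genes, and counts of Ankrd2 were too low to size its change.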
